A study of Mus musculus with 74 samples.

Results

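Messenger RNA of the D-type cyclins, of the kinases they activate and of the inhibitors of those kinases was followed through 9 genes: Ccnd1, Ccnd2, Ccnd3, Cdk4, Cdk6, Cdkn1b, Cdkn1c, Cdkn2b and Cdkn2c. They were taken by symbol from the 18193 genes that had a probe set annotated to a single symbol. All 24 probe sets of the 9 genes were used, of 34945 such probe sets on the array. No filter on low values was applied, so that each of the 9 was tested in each comparison. The arrays came from male B6C3F1 mice, a hybrid laboratory strain, in a study whose title names the mode of action of hemangiosarcoma, a tumour of endothelial cells. White fat came from mice given fenretinide, a synthetic retinoid, at 500 mg/kg in the diet, with groups of 3 vehicle and 3 fenretinide mice for day 15 and of 4 and 4 for day 29. Brown fat and liver came from mice given troglitazone, a thiazolidinedione that activates the nuclear receptor PPAR gamma, at 1200 mg/kg by mouth, with 5 vehicle and 5 treated arrays for each tissue and day. A second set of livers came from mice given Elmiron (pentosan polysulfate sodium, a sulfated polysaccharide) at 1000 mg/kg by mouth, with 5 vehicle and 5 treated arrays for each day. Every treated group was compared with vehicle mice of the same compound's study, tissue and day. Fenretinide was measured in white fat alone, so that compound, study and tissue cannot be told apart there, and the labels do not say which white fat depot was taken. All 16 groups were of 1 strain and 1 sex, on 74 arrays.

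D-type cyclins are made when a cell receives growth signals, and they bind and activate the kinases Cdk4 and Cdk6. The active kinase phosphorylates the retinoblastoma protein and its relatives, which releases E2F transcription factors and lets the genes of DNA replication be transcribed. Inhibitors of the INK4 family, such as the products of Cdkn2b (p15) and Cdkn2c (p18), bind Cdk4 and Cdk6 themselves and keep the cyclin off. Inhibitors of the CIP/KIP family, such as the products of Cdkn1b (p27) and Cdkn1c (p57), bind cyclin and kinase together and act most strongly on the cyclin E and cyclin A kinases. In fat, p18 is known to increase as precursor cells become adipocytes, and cyclin D3 with its kinase is known to take part in that differentiation. Cdkn1c is an imprinted gene that is active in tissues that have left the cell cycle. Since these are bulk tissues, fewer cells of a type and less RNA per cell cannot be told apart.

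Promoter windows, the 250 bases before the annotated start, are shown for the 3 members whose level differed between fenretinide and vehicle mice and that had a matching entry. The windows are those of RefSeq on build GRCm38.p6, matched for 6 of the 9 members (not for Ccnd1, Ccnd2 and Cdkn1c). The Cdk6 window lies before a start inside the gene, whose annotated span begins upstream of it, at position 3341004. Capitals mark matches to the motifs named after the sequences, and each is printed 5′ to 3′ on the gene's own strand.
Cdkn2b, chr4:89311033-89311282, minus strand: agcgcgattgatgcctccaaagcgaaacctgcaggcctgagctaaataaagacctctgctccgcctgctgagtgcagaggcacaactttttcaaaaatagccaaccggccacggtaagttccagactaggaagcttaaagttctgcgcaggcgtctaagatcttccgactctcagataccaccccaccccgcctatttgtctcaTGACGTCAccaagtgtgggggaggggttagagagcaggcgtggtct
Cdk4, chr10:127063285-127063534, plus strand: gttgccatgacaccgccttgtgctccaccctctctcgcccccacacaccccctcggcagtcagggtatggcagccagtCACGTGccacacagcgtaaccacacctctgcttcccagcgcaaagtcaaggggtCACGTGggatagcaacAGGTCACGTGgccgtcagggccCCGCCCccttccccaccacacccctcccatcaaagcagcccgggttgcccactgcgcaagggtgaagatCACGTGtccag
Cdk6, chr5:3343643-3343892, plus strand: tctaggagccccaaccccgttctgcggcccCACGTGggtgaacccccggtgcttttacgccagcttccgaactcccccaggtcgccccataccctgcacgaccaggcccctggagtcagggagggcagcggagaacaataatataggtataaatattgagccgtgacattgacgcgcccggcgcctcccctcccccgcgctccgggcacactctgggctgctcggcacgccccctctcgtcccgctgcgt

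Altogether 8 motifs were searched on both strands. The Cdkn2b window held 1 cyclic AMP response element, TGACGTCA, from 46 to 39 bases before the start, a string present in 1.55% of 32851 windows of the same kind. The Cdk4 window held the E-box CACGTG, the string bound by Myc and related factors, 4 times, at 172 to 167, 118 to 113, 98 to 93 and 11 to 6 bases before the start. An E-box was present in 6.02% of all windows, and 7 of the 32851 held 4 or more. The same Cdk4 window had a GC box (GGGCGG, here on the other strand, in 32.7% of windows) and a nuclear receptor core string (AGGTCA, in 14.02%) that overlapped an E-box. The Cdk6 window held 1 E-box, from 220 to 215 bases before the start. The other motifs were the E2F strings TTTGGCGC (0.417% of windows) and TTTCCCGC (0.895%), the AP-1 string TGANTCA (6.75%) and the FoxO string GTAAACA (3.17%), and these 3 windows held none of them. A match describes letters in a window, and binding there was not measured.

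Values are log2 of the deposited intensity, a change is treated minus vehicle on that scale, and a rise of 1 unit is a factor of 2. A gene is called when its Benjamini-Hochberg adjusted p from limma, over all 18193 genes, is below 0.05. Replicates correlated at 0.905 to 0.997, with a median of 0.992 over 138 pairs. A pair of brown fat libraries stood apart on day 29, vehicle mouse 82 and troglitazone mouse 95. Their mean over 7 brown adipocyte markers was 7.97 and 8.84, while the highest library of each of their groups stood at 13.31 and 13.22. Ucp1, the defining gene of brown adipocytes, was at 5.91 and 8.10 in the pair, and their 4 white adipocyte markers averaged 14.21 and 14.50. They carried RNA of further tissues as well: Alb, the hepatocyte gene of albumin, was at 14.61 in mouse 82 and 10.40 in mouse 95, against 6.32 to 7.57 and 6.58 to 8.55 in the rest of their groups. Mesothelium markers averaged 9.51 and 8.51 in them, and epithelium markers 8.72 in mouse 82, where Cdh1 was at 7.53. White fat libraries of day 29 also carried markers of other tissues in part, and these differed between mice. Hepatocyte markers averaged 11.91 in vehicle mouse 86 and 10.92 and 12.88 in fenretinide mice 93 and 95, against 8.53 to 9.85 in the others. Ucp1 was at 13.44 and 11.69 in vehicle mice 85 and 86 and at 12.82 and 14.66 in fenretinide mice 91 and 93, against 5.13 to 7.56 in the others. Skeletal muscle markers averaged 10.09 and 8.62 in mice 85 and 86 and 9.01 and 11.004 in mice 91 and 93, against 6.21 to 6.51. Day 29 was therefore also fitted without mice 86, 93 and 95, the highest in hepatocyte markers, and without mice 85 and 93, the highest in brown adipocyte markers of each group. On day 15 the white fat of the fenretinide mice held more RNA of epithelial markers, given beside the results it moved with. Adipoq, the defining adipocyte gene, was between 14.77 and 14.99 in all 14 white fat libraries, near the highest values on the arrays. The mean over 4 white adipocyte markers overlapped on day 15, at 13.98 to 14.23 in vehicle and 13.42 to 14.10 in fenretinide mice, and lay lower in every fenretinide mouse on day 29, at 13.43 to 14.02 against 14.42 to 14.55.

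In white fat of fenretinide mice on day 15, transcripts of 1 of 3 D-type cyclins and of both kinases were more abundant and those of 1 of 4 inhibitors were less abundant. Ccnd1, Cdk4 and Cdk6 rose and Cdkn2b fell, while Ccnd2, Ccnd3, Cdkn1b, Cdkn1c and Cdkn2c did not pass the test. This made 4 of 9 members called, against 3.95% of all genes in the same comparison. On day 29 Ccnd1 rose and Cdkn2b fell, 2 of 9, against 1.34% of all genes. The median change of the members was close to that of all genes on both days, -0.0014 against -0.042 on day 15 and -0.12 against -0.016 on day 29. On each day the median fell on a member that was not called, Cdkn2c on day 15 and Ccnd3 on day 29. In the 6 comparisons of the other compounds with vehicle no member was called.

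**Figure D1:**
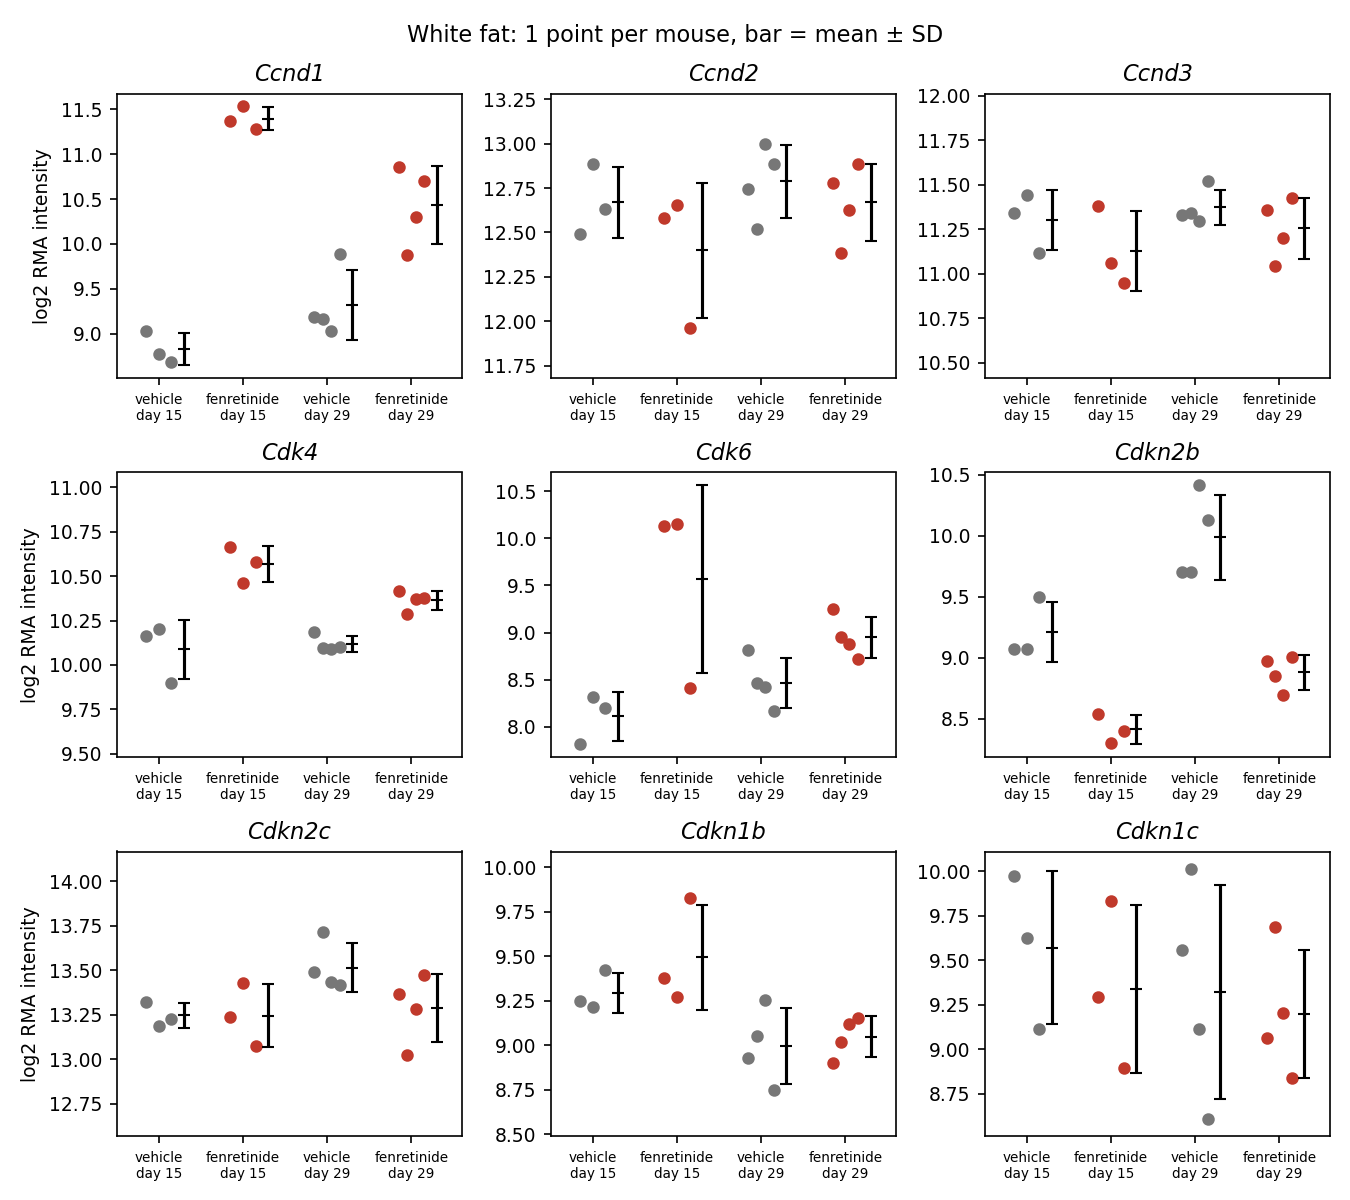
Log2 RMA intensity of the 9 members in white fat, 1 point per mouse, for vehicle and fenretinide mice on days 15 and 29 (3, 3, 4 and 4 mice), with bars for mean ± SD. Ccnd1 in treated mice lies at 11.28 to 11.53 on day 15 against at most 9.03 in vehicle mice, and Cdkn2b lies lower in treated than in vehicle mice on both days.

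Ccnd1 encodes cyclin D1, the D-type cyclin best known as an early target of growth factor signals. On day 15 it stood at 9.03, 8.78 and 8.68 in vehicle mice 48, 49 and 50 and at 11.37, 11.53 and 11.28 in fenretinide mice 57, 58 and 59. The groups were separated by more than 2 log2 units and did not overlap. The change was 2.56 ± 0.25 (SE), or 5.92-fold, with a 95% interval of 2.03 to 3.10 (limma, adjusted p = 5.39e-05). On day 29 the vehicle mice 81, 83, 85 and 86 stood at 9.19, 9.17, 9.03 and 9.89, and the fenretinide mice 91, 93, 94 and 95 at 10.85, 9.88, 10.30 and 10.70. Here the groups touched, with treated mouse 93 a little below vehicle mouse 86. The change was 1.11 ± 0.21 (SE), or 2.17-fold, with an interval of 0.65 to 1.58 (limma, adjusted p = 0.0322). It was 1.45 (adjusted p = 0.0166) without mice 86, 93 and 95 and 1.20 (adjusted p = 0.0499) without mice 85 and 93. Leaving out vehicle mouse 81, 83 or 85 or fenretinide mouse 91, 94 or 95 took the adjusted p above the threshold, to at most 0.0893. The day 29 effect minus the day 15 effect was -1.45 ± 0.33 (SE), with an interval of -2.16 to -0.74 and an adjusted p of 0.0520 (limma).

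Ccnd2 and Ccnd3, the other D-type cyclins, did not follow Ccnd1. Ccnd2 on day 15 was at 12.49, 12.88 and 12.63 in vehicle mice and at 12.58, 12.65 and 11.96 in fenretinide mice, and the groups overlapped. Its change was -0.27, with an interval of -0.68 to 0.15 (limma, adjusted p = 0.466), and on day 29 it was -0.12 with an interval of -0.48 to 0.24. Ccnd3 on day 15 was at 11.34, 11.44 and 11.11 in vehicle mice and at 11.38, 11.06 and 10.95 in treated mice, a change of -0.17 with an interval of -0.46 to 0.12 (limma, adjusted p = 0.519). On day 29 the Ccnd3 change was -0.12, with an interval of -0.37 to 0.14. The upper ends of these intervals lie below the lower end of the interval of Ccnd1 on both days.

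Cdk4, the kinase partner found in most proliferating cells, was at 10.16, 10.20 and 9.90 in vehicle mice and at 10.66, 10.46 and 10.58 in fenretinide mice on day 15. Every treated mouse was above every vehicle mouse. The change was 0.48 ± 0.09 (SE), or 1.39-fold (limma, adjusted p = 0.0113). Without fenretinide mouse 57 the adjusted p was 0.0558. On day 29 the vehicle mice were at 10.19, 10.10, 10.09 and 10.10 and the treated mice at 10.42, 10.29, 10.37 and 10.38. These groups did not overlap either, and the change of 0.24 ± 0.08 (SE), with an interval of 0.07 to 0.42, did not pass (limma, adjusted p = 0.163).

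Cdk6, the related kinase that also binds D-type cyclins, was at 7.82, 8.31 and 8.20 in vehicle mice on day 15. In fenretinide mice 57 and 58 it was at 10.13 and 10.15, and in mouse 59 at 8.41, close to the vehicle range. The change over the 3 mice was 1.45 ± 0.36 (SE), or 2.74-fold, with an interval of 0.67 to 2.24 (limma, adjusted p = 0.0431). It was 2.03 (adjusted p = 2.10e-05) without mouse 59, 1.17 (adjusted p = 0.154) without mouse 57 and 1.16 (adjusted p = 0.144) without mouse 58. The call was also lost without any 1 of the 3 vehicle mice of day 15, at adjusted p-values from 0.0831 to 0.150. Mouse 59 had the highest mean over 16 epithelial markers, 10.13, and over 10 epididymis markers, 7.38 against at most 5.74 in the other white fat libraries of that day. On day 29 Cdk6 was at 8.82, 8.46, 8.42 and 8.17 in vehicle mice and at 9.25, 8.96, 8.88 and 8.72 in treated mice, and the groups overlapped. That change was 0.48, with an interval of -0.20 to 1.17 (limma, adjusted p = 0.535). The difference between the days was -0.97 (adjusted p = 0.358) with all mice and -1.54 (adjusted p = 0.0024) without mouse 59.

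Cdkn2b encodes the INK4 inhibitor p15, known as a target of TGF-beta signals, and was the member that fell. On day 15 it was at 9.07, 9.07 and 9.497 in vehicle mice and at 8.54, 8.30 and 8.40 in fenretinide mice. All treated mice were below all vehicle mice. The change was -0.80 ± 0.18 (SE), 1.74-fold lower, with an interval of -1.19 to -0.40 (limma, adjusted p = 0.0284). On day 29 it was at 9.70, 9.71, 10.41 and 10.13 in vehicle mice and at 8.97, 8.85, 8.69 and 9.01 in treated mice, again with no overlap. The change was -1.11 ± 0.16 (SE), 2.15-fold lower, with an interval of -1.45 to -0.76 (limma, adjusted p = 0.0088). The call on day 29 held without each mouse in turn, at adjusted p-values of at most 0.0353. Without mice 86, 93 and 95 the change was again -1.11 but the adjusted p was 0.0750, in a fit that called 48 genes in all. On day 15 the call was lost without 5 of the 6 mice in turn, with changes from -0.87 to -0.66 and adjusted p-values up to 0.121. The effect on day 29 minus that on day 15 was -0.31, with an interval of -0.83 to 0.22 (limma, adjusted p = 0.579). Vehicle mice of day 29 stood higher than those of day 15, at a mean of 9.99 ± 0.35 (SD, n = 4) against 9.21 ± 0.24 (SD, n = 3), a comparison that was not tested.

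Cdkn2c, the gene of the INK4 inhibitor p18, stayed within a narrow range in white fat. On day 15 it was at 13.32, 13.19 and 13.22 in vehicle mice and at 13.23, 13.43 and 13.07 in fenretinide mice, a change of -0.0014 with an interval of -0.28 to 0.28 (limma, adjusted p = 0.997). On day 29 it was at 13.49, 13.71, 13.44 and 13.42 in vehicle mice and at 13.37, 13.02, 13.28 and 13.47 in treated mice. That change was -0.23, with an interval of -0.47 to 0.01 (limma, adjusted p = 0.364). Both intervals lie above the whole interval of Cdkn2b on day 29, and the day 15 interval lies above that of Cdkn2b on the same day.

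Among CIP/KIP inhibitors, Cdkn1b on day 15 was at 9.25, 9.22 and 9.42 in vehicle mice and at 9.38, 9.27 and 9.83 in fenretinide mice. The change was 0.20, with an interval of -0.13 to 0.53 (limma, adjusted p = 0.501), and on day 29 it was 0.05 with an interval of -0.23 to 0.34. Cdkn1c varied between mice of a group, at 9.97, 9.62 and 9.12 in vehicle mice and 9.29, 9.84 and 8.89 in treated mice on day 15. Its intervals ran from -0.99 to 0.53 on day 15 and from -0.78 to 0.53 on day 29. Cdkn1a, the third CIP/KIP gene and not among the 9, showed a change of 0.71 on day 15 (limma, adjusted p = 0.0661) and rose by 0.995 on day 29 (adjusted p = 0.0206). In brown fat of troglitazone mice its mean was 12.11 against 11.36 in vehicle mice on day 15 and 11.92 against 11.14 on day 29. In troglitazone livers of day 29 it was 10.00 against 9.17. Cdkn1a was not called with troglitazone or Elmiron.

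The probe sets of a gene moved together for the members that rose. For Ccnd1, 3 of 3 probe sets were called on day 15, with changes from 2.57 to 2.68, and 2 of 3 on day 29, with changes from 1.11 to 1.29. For Cdk4, 3 of 3 were called on day 15, at 0.47 to 0.52, and 0 on day 29, at 0.13 to 0.24. For Cdk6, 2 of 3 were called on day 15, at 0.76 to 1.45, and 0 on day 29, at 0.48 to 0.62. All 7 probe sets of Ccnd2 had changes below 0 on both days, from -0.40 to -0.0035 on day 15 and from -0.13 to -0.0083 on day 29, with 0 called. Those of Ccnd3 differed in sign on day 15, from -0.27 to 0.21, and those of Cdkn1b were -0.04 and 0.20, with none called. Cdkn1c, Cdkn2b and Cdkn2c had 1 probe set each, so that no second measurement of them was at hand.

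**Figure D2:**
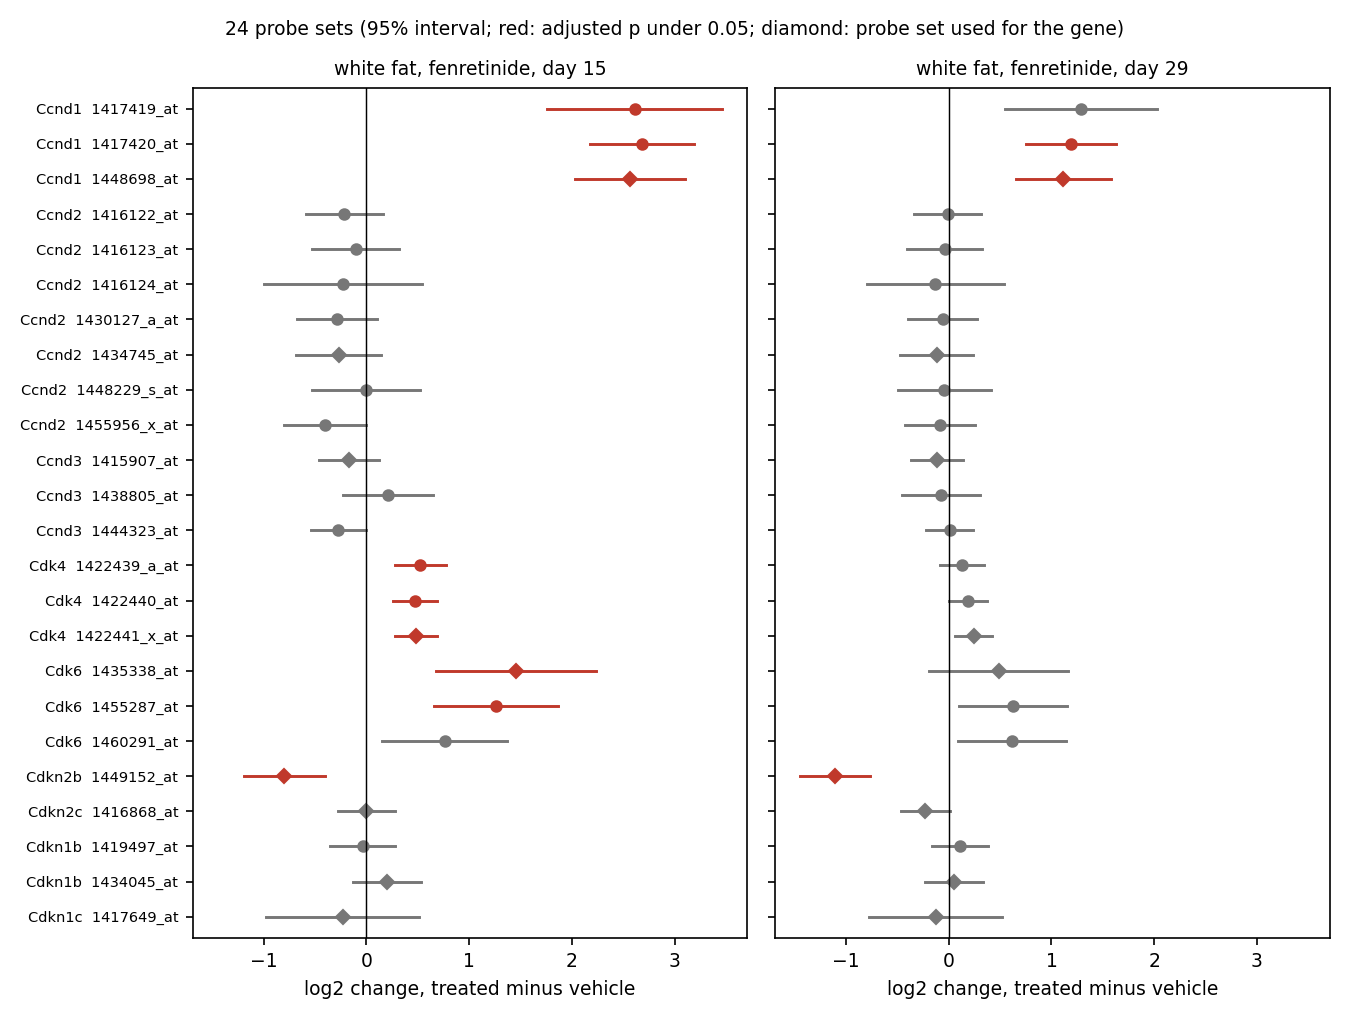
Changes of the 24 probe sets of the 9 members in white fat on day 15 and day 29, as log2 of fenretinide minus vehicle with 95% intervals, with called probe sets in red and the probe set used for each gene as a diamond. The 3 Ccnd1 probe sets lie between 2.57 and 2.68 on day 15 and all 7 Ccnd2 probe sets lie below 0 on both days.

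Genes upstream, beside and downstream of the kinases were described from lists of 8 roles with 103 measured genes that are not members. On day 15, 16 of the 103 were called higher and 0 lower, against 3.95% of all genes called in either direction. Of 19 E2F target genes of S phase, 9 rose and 18 lay above 0, with a median change of 0.72 against -0.042 for all genes. They included Mcm6, a subunit of the replicative helicase, at 1.13 (limma, adjusted p = 0.0014), Uhrf1, a partner of the maintenance methyltransferase, at 1.06 (adjusted p = 0.0078), and Prim1, a primase subunit, at 0.99 (adjusted p = 0.0092). Of 17 mitosis genes, 5 rose, with a median of 0.72, among them Birc5 at 2.06 (adjusted p = 0.0390) and Cdk1 at 1.68 (adjusted p = 0.0393). Of 8 genes of the cyclin E and A kinases, 1 rose, Ccna2 at 1.49 (adjusted p = 0.0394), and of 14 genes of FoxO and TGF-beta input to the inhibitors, 1 rose, Tgfb2 at 0.80 (adjusted p = 0.0393). The pocket proteins and E2F factors (13 genes), the turnover genes of cyclin D (13), its growth factor and Wnt inputs (16) and the 3 other inhibitors had 0 called by limma, and 4, 2, 3 and 1 of them had an unadjusted p below 0.05, as 19.7% of all genes did.

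On day 29 the E2F target and mitosis genes were no longer called. The E2F target list had 0 of 19 called by limma, 2 with an unadjusted p below 0.05 and a median of -0.07, and the mitosis list had 0 of 17 called and 0 with an unadjusted p below 0.05, where 14.8% of all genes had one. In the whole set of 103, 2 were called, near the 1.34% of all genes called. They were Cdkn1a and Smad3, a transducer of TGF-beta signals (0.66, limma, adjusted p = 0.0496). The difference between days was called for 3 E2F target genes, all lower on day 29, with a list median of -0.81. For the members themselves 0 of 9 day differences were called by limma, against 1.33% of all genes. At an unadjusted p below 0.05 there was 1 (Ccnd1), with 15.7% of all genes. By array, the mean over the E2F target list on day 15 was 7.75, 7.70 and 7.39 in vehicle mice and 8.47, 8.28 and 8.49 in fenretinide mice. On day 29 vehicle mouse 86 stood highest, at 8.40 against 7.74 to 7.85 in the other vehicle mice and 7.79 to 7.93 in treated mice, and it also had the highest Ccnd1 of its group. The median of all genes on day 15 moved by -0.154 under median centring, so that changes near that size have no settled sign.

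Markers of epithelial cells moved with the day 15 result. Of 16 general epithelium markers, 10 were called higher in fenretinide mice, with a median change of 2.63, among them Prom1 at 5.48, Dsp at 5.19 and Cldn7 at 5.05. The array means were 6.47, 6.92 and 7.06 in vehicle mice and 9.05, 9.24 and 10.13 in fenretinide mice, and the summed intensity ran from 2140 to 4035 and from 15700 to 28629. Cdh1, the defining E-cadherin gene, was at 3.76 to 4.09 in vehicle mice and at 8.05, 8.27 and 9.84 in treated mice. Epcam, another defining epithelial gene, did not follow it, at 8.69, 8.83 and 9.47 in vehicle mice and 8.92, 8.72 and 9.08 in treated mice. On day 29 the same list had 0 of 16 called by limma and 1 with an unadjusted p below 0.05. Its array means there were 6.95 to 7.19 in vehicle mice and 6.82 to 7.02 in treated mice, while Ccnd1 was higher by 1.11 and Cdkn2b changed by -1.11. Of 10 endothelial markers, Emcn rose on day 15 (0.94, adjusted p = 0.0103), and the list means were 9.95 to 10.31 in vehicle mice and 10.48 to 10.72 in treated mice. Of 7 macrophage markers 0 were called by limma on either day, with 1 and 6 at an unadjusted p below 0.05. Their array means were 10.23 to 10.48 in vehicle and 10.13 to 10.17 in fenretinide mice on day 15, and 10.05 to 10.64 and 9.68 to 10.07 on day 29. White adipocyte markers lay lower in fenretinide mice on day 29, with 1 of 4 called, Lep. The part of epithelial, endothelial, macrophage and adipocyte RNA in the changes of Ccnd1, Cdk4, Cdk6 and Cdkn2b was not tested.

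**Figure D3:**
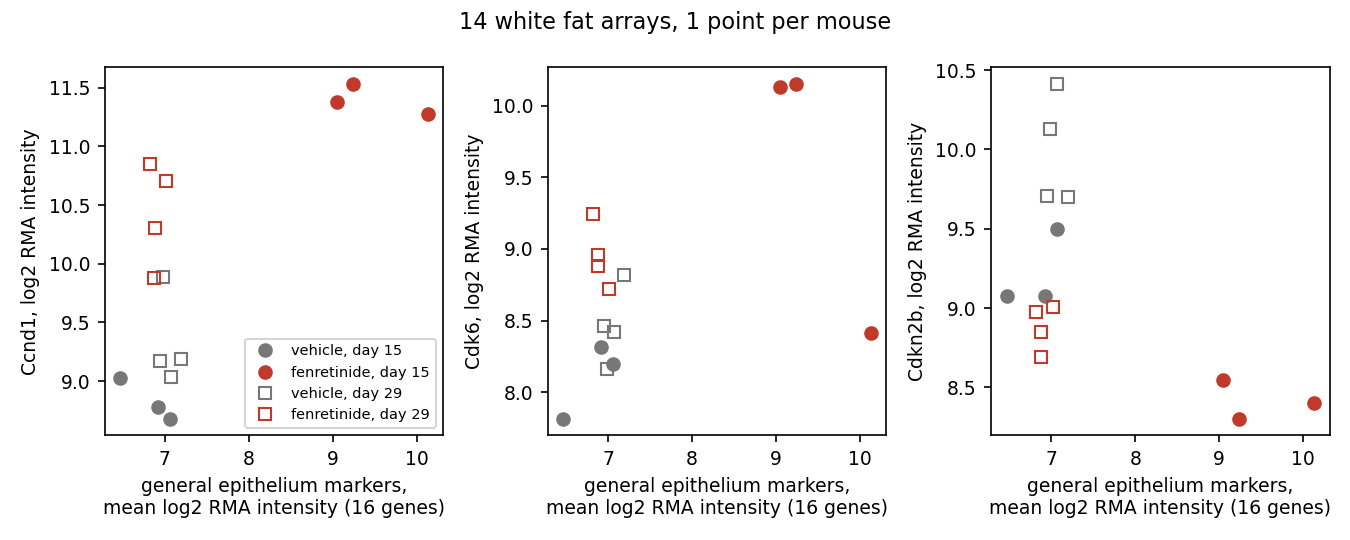
Log2 RMA intensity of called members against the mean log2 intensity of 16 general epithelium markers in the 14 white fat arrays, 1 point per mouse. The 3 fenretinide mice of day 15 lie apart at epithelial means of 9.05, 9.24 and 10.13, and the mice of day 29 lie between 6.82 and 7.19 in both groups.

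Genes whose pattern was most like that of Ccnd1 and Cdkn2b were sought over the 16 group means, with the mean of each tissue and study taken off. The search was among the 943 genes called in at least 1 of the 8 comparisons of a compound with its vehicle. The closest to Ccnd1 were Mybl1 (Pearson r = 0.98), which rose by 1.003 on day 15 (limma, adjusted p = 0.0026), Tnik (r = 0.97) and Tlcd3a (r = 0.96). The closest to Cdkn2b were 0610010F05Rik (r = 0.95), Lep (r = 0.94) and Gamt (r = 0.94). Lep, the leptin gene of adipocytes, fell by 2.74 on day 29 (limma, adjusted p = 0.0354). White fat had 719 and 244 genes called on the respective days, and each other comparison had 0 to 21. The genes searched were thus chosen largely by the white fat changes in which both members were called, which favours high correlations. The points of these correlations also share mice and arrays, so that they are given as a description.

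In brown fat of troglitazone mice no member was called, against 0.0605% of all genes on day 15 and 0.055% on day 29. At an unadjusted p below 0.05 by limma there was 1 member on each day, Cdkn1c and then Cdkn1b, with 3.75% and 6.01% of all genes. Cdkn1c on day 15 was at 10.03, 9.996, 9.98, 10.42 and 10.34 in vehicle mice 41 to 45 and at 10.83, 10.72, 10.75, 10.42 and 10.88 in treated mice 51 to 55. The groups did not overlap, though treated mouse 54 and vehicle mouse 44 lay next to each other at 10.42. The change was 0.57 ± 0.17 (SE), with an interval of 0.21 to 0.92 and an adjusted p of 0.495. On day 29 it was 0.28, with an interval of -0.08 to 0.64, and 0.40 with an interval of 0.09 to 0.71 (limma, adjusted p = 0.203) without mice 82 and 95. That smaller fit called 198 genes, against 10 with all mice, and no member. Cdkn1b on day 29 had a change of -0.30, with an interval of -0.57 to -0.04 and an adjusted p of 0.753. Both days shared 1 estimate of the spread, so that mice 82 and 95 entered the day 15 intervals as well. Over the members those intervals ran from -1.03 to 1.39, and day 15 was not refitted without the pair. Fitted on its own groups alone, day 15 called 102 genes and no member.

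The libraries of vehicle mouse 82 and troglitazone mouse 95 stood apart in the members too. Ccnd2 was at 12.36 and 12.89 there and between 9.25 and 10.31 in the other 18 brown fat libraries. Cdkn2b was at 9.42 and 9.59 against 7.26 to 8.11, and Cdkn2c at 13.58 and 13.38 against 11.53 to 12.59. Ccnd3 was at 11.29 and 11.40 against 10.35 to 10.84, and Ccnd1 at 10.03 and 9.43 against 8.27 to 8.78. In each of these 5 genes the pair lay above every other brown fat library. White fat vehicle mice had Ccnd2 at 12.49 to 13.00 and Cdkn2c at 13.19 to 13.71, in another study. What put the pair there was not tested.

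In liver no member was called with either compound. Troglitazone had 0 of 9 called by limma on each day, against 0.022% and 0.115% of all genes called. At an unadjusted p below 0.05 there was 1 member on each day, with 4.30% and 10.2% of all genes. Elmiron had 0 of 9 on each day and 0 with an unadjusted p below 0.05, against 0% and 0.0055% of all genes called, and 5.48% and 8.30% of all genes had an unadjusted p below 0.05 (997 genes on day 15, where none was called). Ccnd2 on day 15 of troglitazone was at 8.99, 8.96, 8.77, 9.11 and 8.93 in vehicle mice and at 8.71, 8.51, 8.59, 8.37 and 8.46 in treated mice. These groups did not overlap. The change was -0.42 ± 0.17 (SE), with an interval of -0.77 to -0.08 and an adjusted p of 0.957, and on day 29 it was 0.13. Cdkn1c on day 29 had a change of -0.19, with an interval of -0.35 to -0.02 (adjusted p = 0.452). Ccnd1 had changes above 0 in all 4 liver comparisons, 0.23 and 0.30 with troglitazone and 0.16 and 0.24 with Elmiron on days 15 and 29, and every interval included 0. The highest upper end of those intervals was 0.76, below the white fat interval of day 15 (2.03 to 3.10) but within that of day 29 (0.65 to 1.58).

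**Figure D4:**
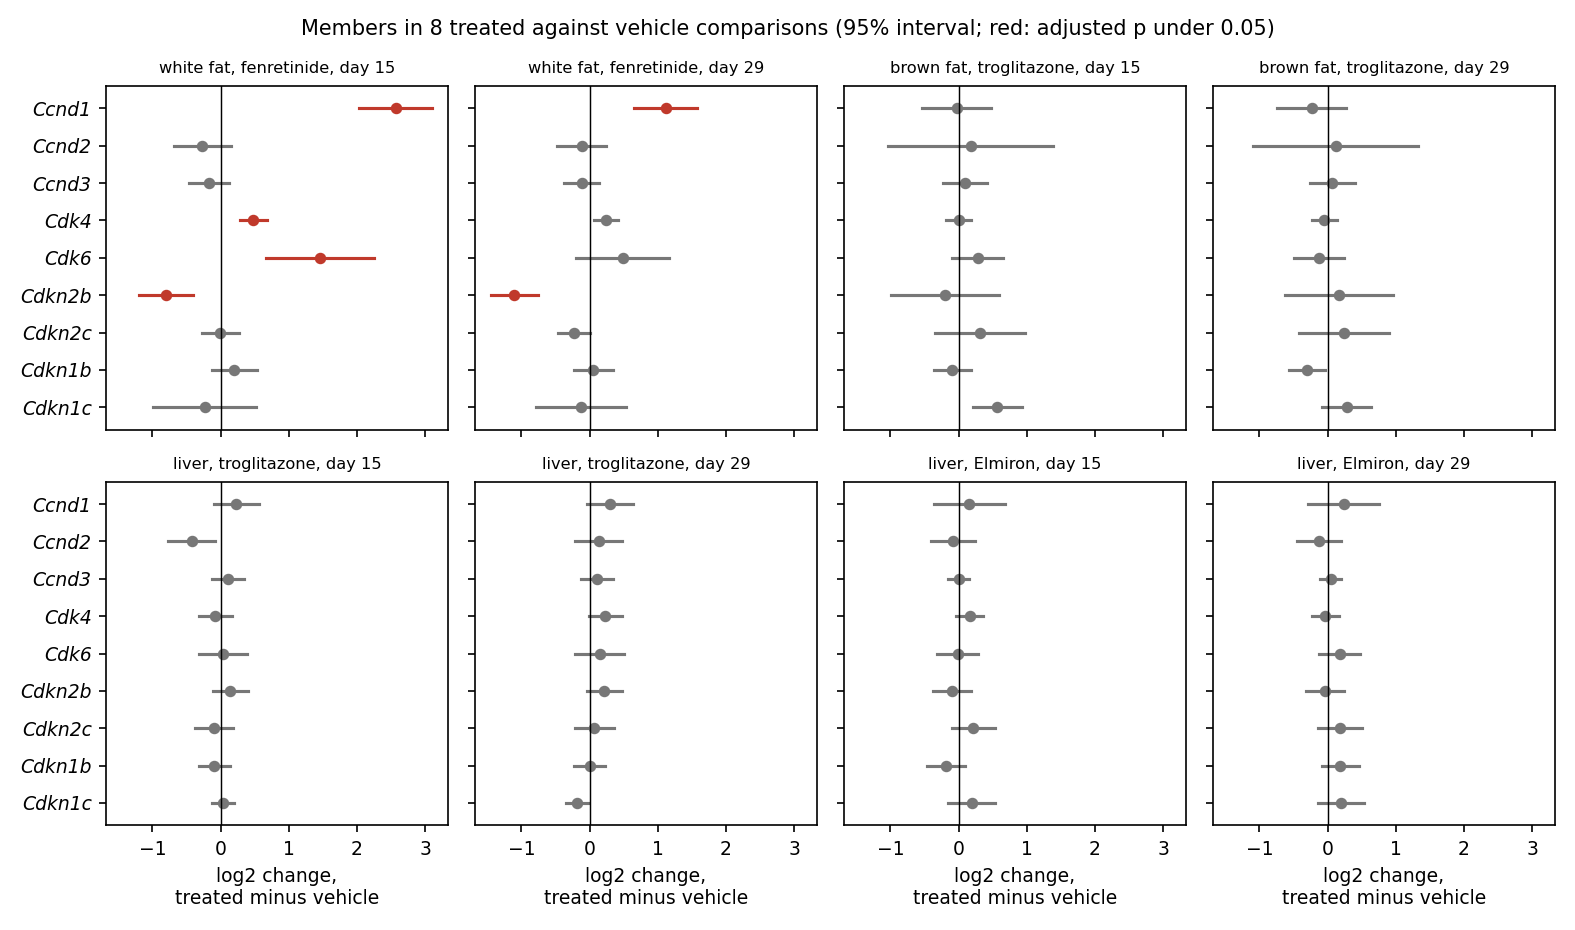
Changes of the 9 members in the 8 comparisons of a compound with its vehicle, as log2 with 95% intervals, with called members in red. The red points lie in the white fat panels alone, 4 on day 15 and 2 on day 29, and the changes in the other 6 panels lie between -0.42 and 0.57.

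Direct tests of differences between effects called no member. The troglitazone effect in brown fat minus that in liver had 0 of 9 called by limma on each day, against 0.022% and 0.0165% of all genes. At an unadjusted p below 0.05 there was 1 member on each (Cdkn1c both times), with 3.19% and 5.40% of all genes. For Cdkn1c this difference was 0.53 (interval 0.15 to 0.91) on day 15 and 0.47 (interval 0.09 to 0.85, adjusted p = 0.803) on day 29, and 0.59 (adjusted p = 0.127) on day 29 without mice 82 and 95. Troglitazone minus Elmiron in liver, at unequal doses and against separate vehicle mice, had 0 of 9 called on each day, against 0.0055% and 0.0934% of all genes. At an unadjusted p below 0.05 there were 0 and 1 members, with 5.97% and 12.7% of all genes. Differences between days had 0 of 9 called in brown fat, in troglitazone livers and in Elmiron livers, where 0% of all genes were called in each. Of the members, 0, 1 and 0 had an unadjusted p below 0.05 there by limma, and of all genes 207, 1363 and 981.

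Most genes differed between brown fat and liver, so that the number of members called says little about them and their sizes are given. In vehicle mice of the troglitazone study, brown fat minus liver called 6 members higher and 1 lower on day 15, against 63.1% of all genes called in either direction. On day 29 it called 7 higher and 0 lower, against 65.8%, so that 7 of 9 on each day was near the share of all genes. The brown fat libraries also held muscle RNA, with skeletal muscle markers averaging 9.57 to 13.03 in vehicle mice of day 15 against 6.19 to 6.38 in liver, and its part in the differences was not tested. Cdkn1c was furthest from liver, at 10.15 ± 0.21 (SD, n = 5) in brown fat and 7.44 ± 0.11 (SD, n = 5) in liver on day 15, a difference of 2.71 ± 0.13 (SE), or 6.55-fold (limma, adjusted p = 9.18e-20). Cdkn2c differed by 2.32 ± 0.25 (SE), or 4.98-fold, on day 15 (adjusted p = 2.89e-10) and by 2.65 on day 29, and by 2.30 on day 29 without mice 82 and 95. Cdkn2b differed by 1.14 and 1.22 on the respective days, and by 0.84 without those mice. Both INK4 genes and both CIP/KIP genes were thus higher in brown fat, with Cdkn1b at 0.38 (adjusted p = 0.0065) and 0.50.

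Among the cyclins, Ccnd2 was higher in brown fat by 0.92 on day 15, with no overlap (limma, adjusted p = 0.0644), and by 1.52 on day 29 (adjusted p = 0.0028), or 0.97 without mice 82 and 95. The fit shared 1 estimate of the spread over both days, and on day 29 the brown fat SDs were 1.24 in vehicle and 1.47 in troglitazone mice. Fitted on the vehicle groups of day 15 alone, the Ccnd2 difference was called (limma, adjusted p = 6.67e-05). All 7 probe sets of Ccnd2 had differences above 0 on both days, with 5 called on day 15 and 7 on day 29. Ccnd3 was higher by 0.70 and 0.69, but its probe sets disagreed, with 1 of 3 called higher and 1 of 3 called lower on both days. Ccnd1 in brown fat minus liver was -0.54 on day 15 (adjusted p = 0.0275). On day 29 its difference was -0.07 (adjusted p = 0.774), and -0.36 (adjusted p = 0.0311) without mice 82 and 95. With all mice kept, the Ccnd1 probe sets disagreed between days. On day 15, 1 of 3 was called lower, with differences from -0.54 to -0.11. On day 29, 1 of 3 was called higher, with differences from -0.07 to 0.61. These day 29 values include mouse 82, with Ccnd1 at 10.03 against 8.51 to 8.78 in the rest of its group. The probe sets were not refitted without it. The day 15 call was lost in 5 of 10 fits that left out 1 array, at adjusted p-values up to 0.0745 (limma). Of the kinases, Cdk4 was higher in brown fat by 0.41 and 0.43, with 2 of its 3 probe sets called on each day. Cdk6 showed differences of -0.06 (interval -0.43 to 0.31) and 0.05 (interval -0.32 to 0.42), and 0 of its 3 probe sets were called.

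Over all vehicle mice, Ccnd2 ran from 12.49 to 13.00 with a median of 12.74 in white fat (n = 7), from 9.25 to 12.36 with a median of 9.80 in brown fat (n = 10), and had medians of 8.94 and 8.47 in the livers of the troglitazone and Elmiron studies (n = 10 each). Cdkn2c had medians of 13.42, 11.99, 9.69 and 9.67 in the same order, and Cdkn2b 9.70, 7.77, 6.68 and 6.54. For these 3 genes the white fat median was the highest and the liver medians were the lowest, and the ranges of the liver sets overlapped each other. White fat was also highest and liver lowest for Ccnd3, with medians of 11.34, 10.66, 10.01 and 9.93. The same held for the medians of Cdk4 (10.10, 10.02, 9.69 and 9.73) and Cdkn1b (9.22, 8.94, 8.51 and 8.61), but with overlapping ranges. Cdk4 ran from 9.90 to 10.20 in white and from 9.79 to 10.22 in brown fat. Cdkn1b ran from 8.75 to 9.42 and from 8.74 to 9.27. Livers of the Elmiron study reached 9.97 and 8.92 for these genes, within the fat ranges. Cdkn1c was ordered differently, with medians of 10.13 in brown fat, 9.56 in white fat and 7.399 and 7.386 in the livers, and the ranges of brown and white fat met between 9.97 and 10.01. Cdk6 had its lowest median in white fat, 8.31 against 9.07 in brown fat and 9.21 and 9.004 in the livers. Ccnd1 medians lay close together, from 8.56 in brown fat to 9.08 in the livers of the Elmiron study, with overlapping ranges. White fat and the other tissues come from separate studies, so these orders carry no test. The gap between the highest and the lowest of the 16 group means was 4.69 for Ccnd2, 3.98 for Cdkn2c, 3.58 for Cdkn1c and 3.47 for Cdkn2b, and 1.01 for Cdk4.

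**Figure D5:**
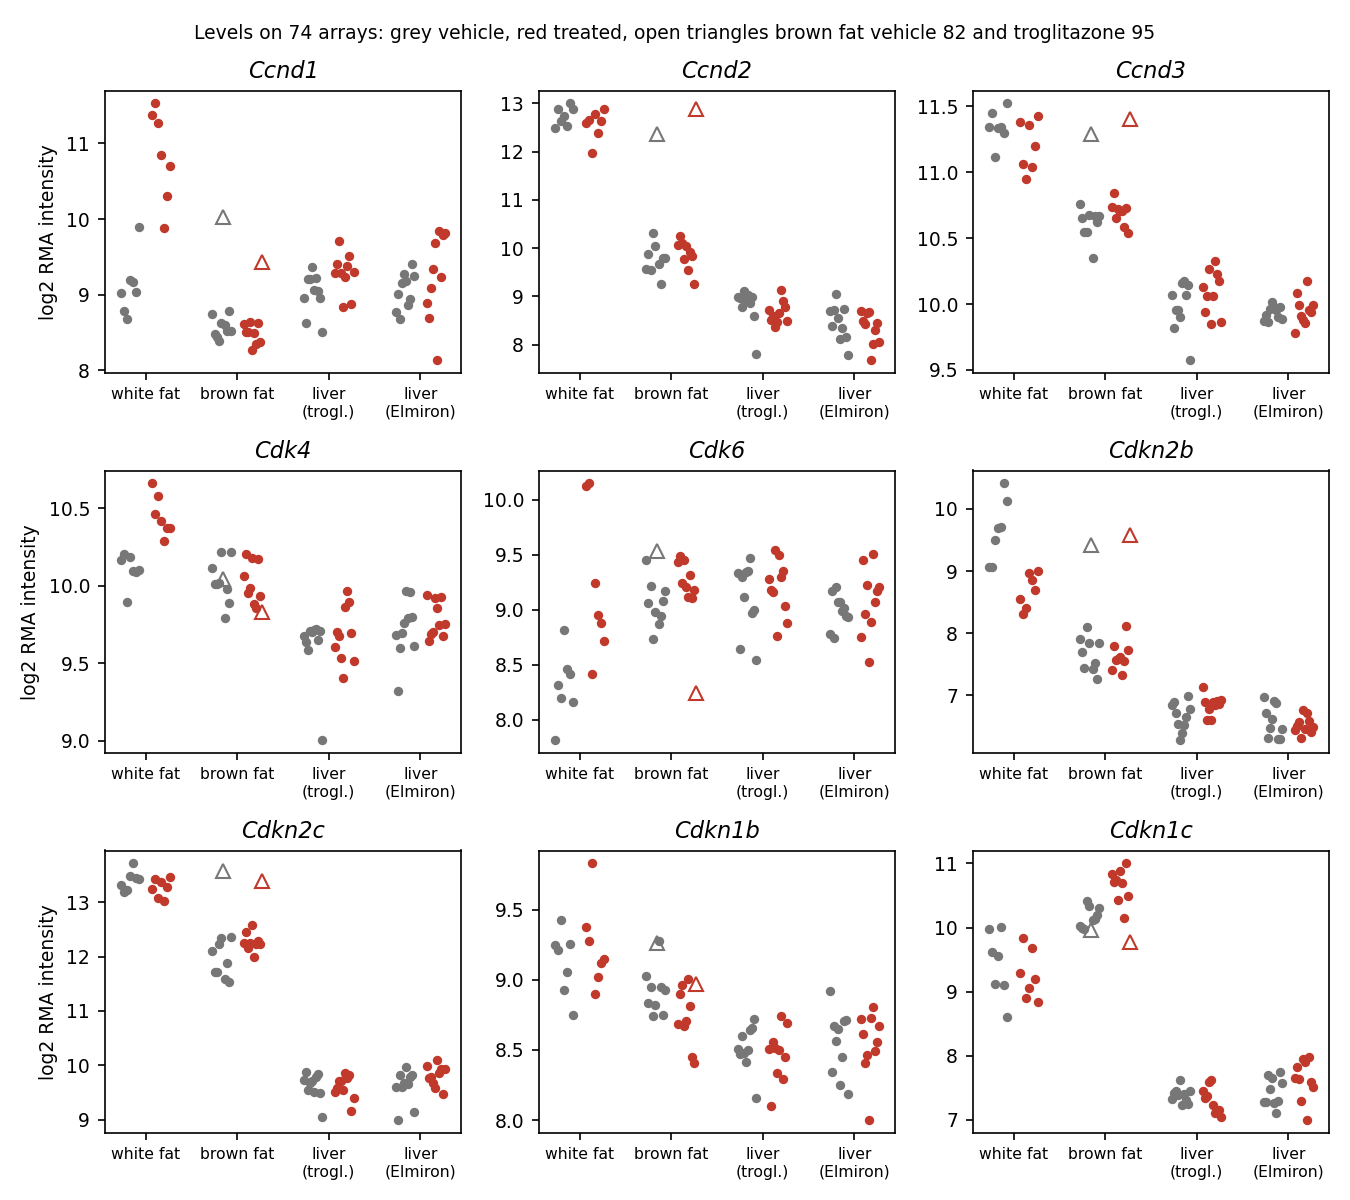
Log2 RMA intensity of the 9 members on all 74 arrays by tissue and study, with vehicle mice in grey, treated mice in red and the brown fat libraries of vehicle mouse 82 and troglitazone mouse 95 as open triangles. Ccnd2, Cdkn2b and Cdkn2c are highest in white fat and lowest in liver, and the triangles lie above the other brown fat points in these 3 genes.

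Of the 103 pathway genes outside the 9, 0 were called by limma in any of the 6 comparisons of a compound with its vehicle in brown fat and liver. At an unadjusted p below 0.05 there were 3 and 11 in brown fat, 7 and 16 in troglitazone livers and 13 and 10 in Elmiron livers. Of all genes, 3.75% and 6.01%, 4.30% and 10.2%, and 5.48% and 8.30% had such a p. Between brown fat and liver of vehicle mice, 26 of the 103 were higher and 22 lower on day 15 and 29 higher and 23 lower on day 29, a smaller share on each day than the 63.1% and 65.8% of all genes, which was not tested.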

How the data were processed

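Affymetrix whole-genome mouse arrays of 74 tissue samples were used, with total RNA isolated by Trizol and biotin-labelled cRNA hybridised, per the labels' protocols. The deposited values are RMA (robust multi-array average) summaries made by the authors, per the labels, each a linear intensity of 1 probe set, from 7.44 to 39426. Which version of RMA was run, and over which arrays, is not given in the sources used here. The log2 of the deposited intensity was taken for every test. Of 45101 probe sets, 34945 had 1 gene symbol in the platform annotation, 932 several, 9160 none and 64 were controls. Where a gene had several single-symbol probe sets, the one brightest on average across the 74 arrays stood for it.

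Models were fitted in R 4.3.3 with the lmFit and eBayes functions of limma 3.58.1, over the 4 groups of a tissue and study, or over 8 groups for contrasts between tissues or compounds, 18 comparisons in all, with p-values adjusted by Benjamini-Hochberg over all genes. Intervals are 95% intervals of the fit. Replicates are distinct mice by the labels, and their number limits the precision. A p-value sets a difference between group means against the spread between mice within groups, which also holds differences between arrays. Same-numbered brown fat and liver arrays of the troglitazone study were taken to be 1 mouse, per the labels. Their deviations from the group means correlated at -0.135 to 0.151 over 15 mice, with a median of 0.024, and above 0.1 in 1. The script was tested on simulated data. Python 3.11.15 with pandas 2.3.3 and numpy 2.4.6 made the tables, and matplotlib 3.10.9 drew the figures.

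The members and the lists of pathway genes and cell markers were chosen with earlier results of these data known, and no list is independent support. All 9 members were named, together with Cdkn1a and Cdkn2a, and of each list up to 3 called genes with the smallest adjusted p. For Ccnd1 and Cdkn2b the 3 most alike genes were named. Cdh1, Adipoq and Ucp1 were named besides, as defining markers. Alternatives were median centring, quantile normalization, a filter that dropped the dimmer 50% of genes, array weights, trended and robust eBayes, the mean or each of a gene's probe sets, the contrast's groups alone, blocking on the mouse, and each array left out in turn. Settings without the libraries that stood apart were added after the data were seen. Promoter windows were searched as letters on both strands. Cdkn2a was at 5.30 to 5.87 in fat, with no call in the 8 comparisons of a compound with its vehicle.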

Additional observations from a re-analysis of the deposited data

Results flagged for a closer look

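Single libraries lay far from the rest of their group, by Dixon's test at the 95% level, in 12 of the 126 combinations of member and group that were tested, and chance gives about 1 in 20. Of these, 8 came from 2 brown fat libraries of day 29. In the vehicle group mouse 82 had Ccnd1 at 10.03 against 8.51 to 8.78 in the others, Ccnd2 at 12.36 against 9.25 to 9.80 and Cdkn2b at 9.42 against 7.26 to 7.85. In the troglitazone group mouse 95 had Ccnd1 at 9.43 against 8.35 to 8.62, Ccnd2 at 12.89 against 9.26 to 9.92, Ccnd3 at 11.40 against 10.54 to 10.72, Cdk6 at 8.25 against 9.11 to 9.31 and Cdkn2c at 13.38 against 11.99 to 12.29. The brown adipocyte markers of both libraries were low, as the report gives.

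Among livers, vehicle mouse 88 of the troglitazone study on day 29 had Ccnd3 at 9.58 against 10.07 to 10.18 and Cdk4 at 9.01 against 9.65 to 9.72. Vehicle mouse 42 of the Elmiron study on day 15 had Cdkn2c at 8.998 against 9.61 to 9.83. In white fat, vehicle mouse 81 of day 29 had Cdk4 at 10.19 against 10.09 to 10.10, a gap that is small in size.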

How the results depend on the processing

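Over 400 counts of called members under other settings, 381 stayed within 1.5 times the count reported, and of 361 values of called members, 330 kept their direction and side of the threshold, 31 kept their direction alone and 0 reversed. These totals pool in brown fat minus liver, where 63.1% and 65.8% of all genes were called, and comparisons with 0 members called. They do not stand for the white fat calls. There, leaving out 1 mouse kept the call of Cdk6 on day 15 in 1 of 6 fits. For Cdkn2b it was 1 of 6 on day 15 and 8 of 8 on day 29. For Ccnd1 it was 6 of 6 and 2 of 8, and for Cdk4 on day 15 it was 5 of 6. In white fat on day 15 (4 members called) fitting the contrast's groups alone called 1 (Ccnd1), and leaving out a mouse gave 1 to 4. On day 29 (2 called) the contrast's groups alone called 1, dropping the dimmer 50% of genes called 1 because it removed Cdkn2b before the test, leaving out mice 86, 93 and 95 called 1, and leaving out a mouse gave 1 to 2. For the day difference in white fat (0 called) trended and robust eBayes called 1, array weights called 1 and leaving out a mouse gave 0 to 2. Quantile normalization put Cdk6 on day 15 at 1.38 with an adjusted p of 0.0554, and the contrast's groups alone put Cdk4 at an adjusted p of 0.102. The cause of these changes was not tested. With the mouse as a replicate block, brown fat minus liver in vehicle mice called 7 members on each day, as without it, and Ccnd1 was at -0.54 (limma, adjusted p = 0.0298). The block changed no member's call. The contrast's groups alone are the same 4 groups for the day differences and gave no other value there.

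Calls over all genes moved more. On day 15 in white fat they were 719 as reported, 368 without the dimmer genes, 2308 with median centring, 2186 with array weights, 1140 over all probe sets and 350 with the contrast's groups alone. On day 29 they were 244 as reported, 404 over all probe sets, 46 with the contrast's groups alone, 48 without mice 86, 93 and 95 and 42 without mice 85 and 93. The day difference had 242 as reported, 109 without the dimmer genes, 746 with array weights, and 120 and 127 without the same sets of mice. In brown fat, with 11 and 10 called on days 15 and 29 as reported, array weights called 321 and 170 and the contrast's groups alone 102 and 0. In livers of troglitazone mice, with 4 and 21, array weights called 19 and 436. The troglitazone effect in brown fat minus liver, with 4 and 3, had 45 and 0 with the contrast's groups alone, and troglitazone minus Elmiron on day 29, with 17, had 912 with array weights. Brown fat minus liver in vehicle mice, with 11488 and 11971, had 6745 and 6660 without the dimmer genes and 21088 and 22048 over all probe sets. Median centring moved all genes by -0.154 on day 15 and by 0.149 in the day difference of white fat, and elsewhere by -0.0426 to 0.0201. Averaging probe sets put the brown fat minus liver difference of Ccnd3 at 0.07 and 0.14, neither called. The number of arrays limits precision, with 3 to 5 mice in a group.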
